A study of Rattus norvegicus with 2 samples.

Results

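The genes described here encode the subunits of the mitochondrial respiratory chain and of the ATP synthase, with the NDUFAF assembly factors of complex I. They were chosen by name, from the current rat symbols of the RefSeq accessions on the array (NADH dehydrogenase, succinate dehydrogenase, cytochrome bc1, cytochrome c oxidase, ATP synthase and cytochrome c symbols), and no measured value entered the choice. Of 26912 genes or unmatched transcripts on the array, 82 matched, on 104 probes, and 1 of the 82 is a pseudogene (Cox6c-ps1). A further 38 protein-coding symbols of the same families matched no probe by accession and were not analysed here, among them Cyc1, Cox7a1, Atp5mc3 and Ndufa4l2.

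RNA came from cultured stromal cells of rat bone marrow, the supporting cells of the marrow that attach to plastic, with 1 array for each group. The control group was normal (wild type) Sprague-Dawley rats. The transgenic group was rats of Sprague-Dawley origin with 2 added human genes, those of renin and of angiotensinogen. Neither group received a treatment per the labels, and both were cultured in 6-well plates, with 150000 cells a well, to just below confluence. The age of the rats, the promoters of the transgenes and the number of rats or cultures behind an array are not given in the sources used here. Since a group has a single array, the spread between rats is unknown, no test was made, and every difference describes these 2 arrays. In bulk RNA, fewer cells of a type and less RNA per cell cannot be told apart.

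The respiratory chain passes electrons from NADH (complex I) and succinate (complex II) through ubiquinone, complex III and cytochrome c to oxygen at complex IV, and pumps protons as it does so. Complex V, the ATP synthase, uses the proton gradient to make ATP. Most subunits are encoded in the nucleus, and the subunits encoded in mitochondrial DNA were not among the matched probes. Some subunits of complex IV have a second isoform that is used in muscle, in testis or, for Cox4i2 in place of Cox4i1 and Ndufa4l2 in place of Ndufa4, at low oxygen.

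Signals are given as relative signals, the background-subtracted spot signal divided by that array's 75th percentile over all probes, so a relative signal of 1 lies at that percentile. A difference is the log2 relative signal of transgenic minus control. Levels of different genes come from different probes. They are ranked or summed below only as probe brightness and are not read as amounts of RNA. The arrays were similar in depth, with 60.2% of 30366 probes well above background in control and 60.8% in transgenic, 75th percentiles of 905 and 1080 units and 0 saturated spots. Of the 82 genes, 81 were well above background on both arrays and are called measured. The remaining gene, the testis isoform Cox8c, was well above background on neither, and 0 of the 82 were detected on 1 array only, against 9.95% of all genes detected on any array. Repeated spots of the measured genes had a median SD of 0.038 log2 in control and 0.036 in transgenic (highest 0.144 and 0.221), and 13 of the 82 genes had a single spot a probe. The error that the scanner software attaches to a signal gave differences a median error of 0.20 log2, and 62 of the 81 differences exceeded their own such error. Both errors are technical.

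The genes of oxidative phosphorylation differed little between the arrays, and most lay slightly lower in transgenic relative to the bulk of genes. Their median difference was -0.36 log2, with an interquartile range from -0.63 to -0.06, beside a median of -0.07 over all 15501 measured genes or unmatched transcripts and a range from -0.53 to 0.41. By a size rule of 2-fold, 2 of the 81 (2.47%) were higher, where 10.5% of all measured genes were, and 5 (6.17%) were lower, where 10.3% of all were. Within 2-fold were 74, so 7 of 81 were past the rule in either direction, where 20.8% of all were. Differences below 0 were found for 65 of the 81 (80.2%), beside 54.4% of all measured genes. By a 1.5-fold rule, 4 were higher (4.94%, beside 19.1% of all) and 23 lower (28.4%, beside 22.5% of all). These genes are bright, and 47 of the 81 lay in the top 10% of measured genes by mean signal. All genes in that top 10% had a median difference of -0.05 with 54.5% below 0, whereas the 47 had a median of -0.39 with 41 below 0. By the 2-fold rule, 7.35% of all genes in that top 10% were higher and 4.77% lower. Of the 47, 0 were higher and 3 (6.38%) lower, so at like brightness the share lower was not below that of all genes.

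The direction is relative to the other genes on the arrays. When the E1A spike-in probes set the scale of each array instead, the median of all measured genes moved from -0.07 to 0.85, the median of the 81 genes moved to 0.56 and 14 were at least 2-fold higher and 0 lower, where 41.2% and 2.6% of all genes were. Of all genes past 2-fold, 50.6% were higher under the first scaling and 94.1% under spike-in scaling. Scaling on a percentile, a median or spike-ins shifts every gene alike, so by construction it leaves the gap between any genes or medians over the same genes as it is. The 81 genes' median lay 0.29 log2 below that of all genes, and between 0.15 and 0.32 below it with the other normalizations, background correction, filters and probe rules. In the account below, higher and lower are meant relative to the 75th percentile of each array, and the complex medians, all below 0 here, are all above 0 under spike-in scaling. The 5 genes at least 2-fold lower stayed below 0 under it, from -0.38 for Ndufaf8 to -0.10 for Ndufc2. For Ndufc2 and Ndufaf1 (-0.18) these differences were smaller than their scanner errors of 0.204 and 0.205.

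**Figure D1:**
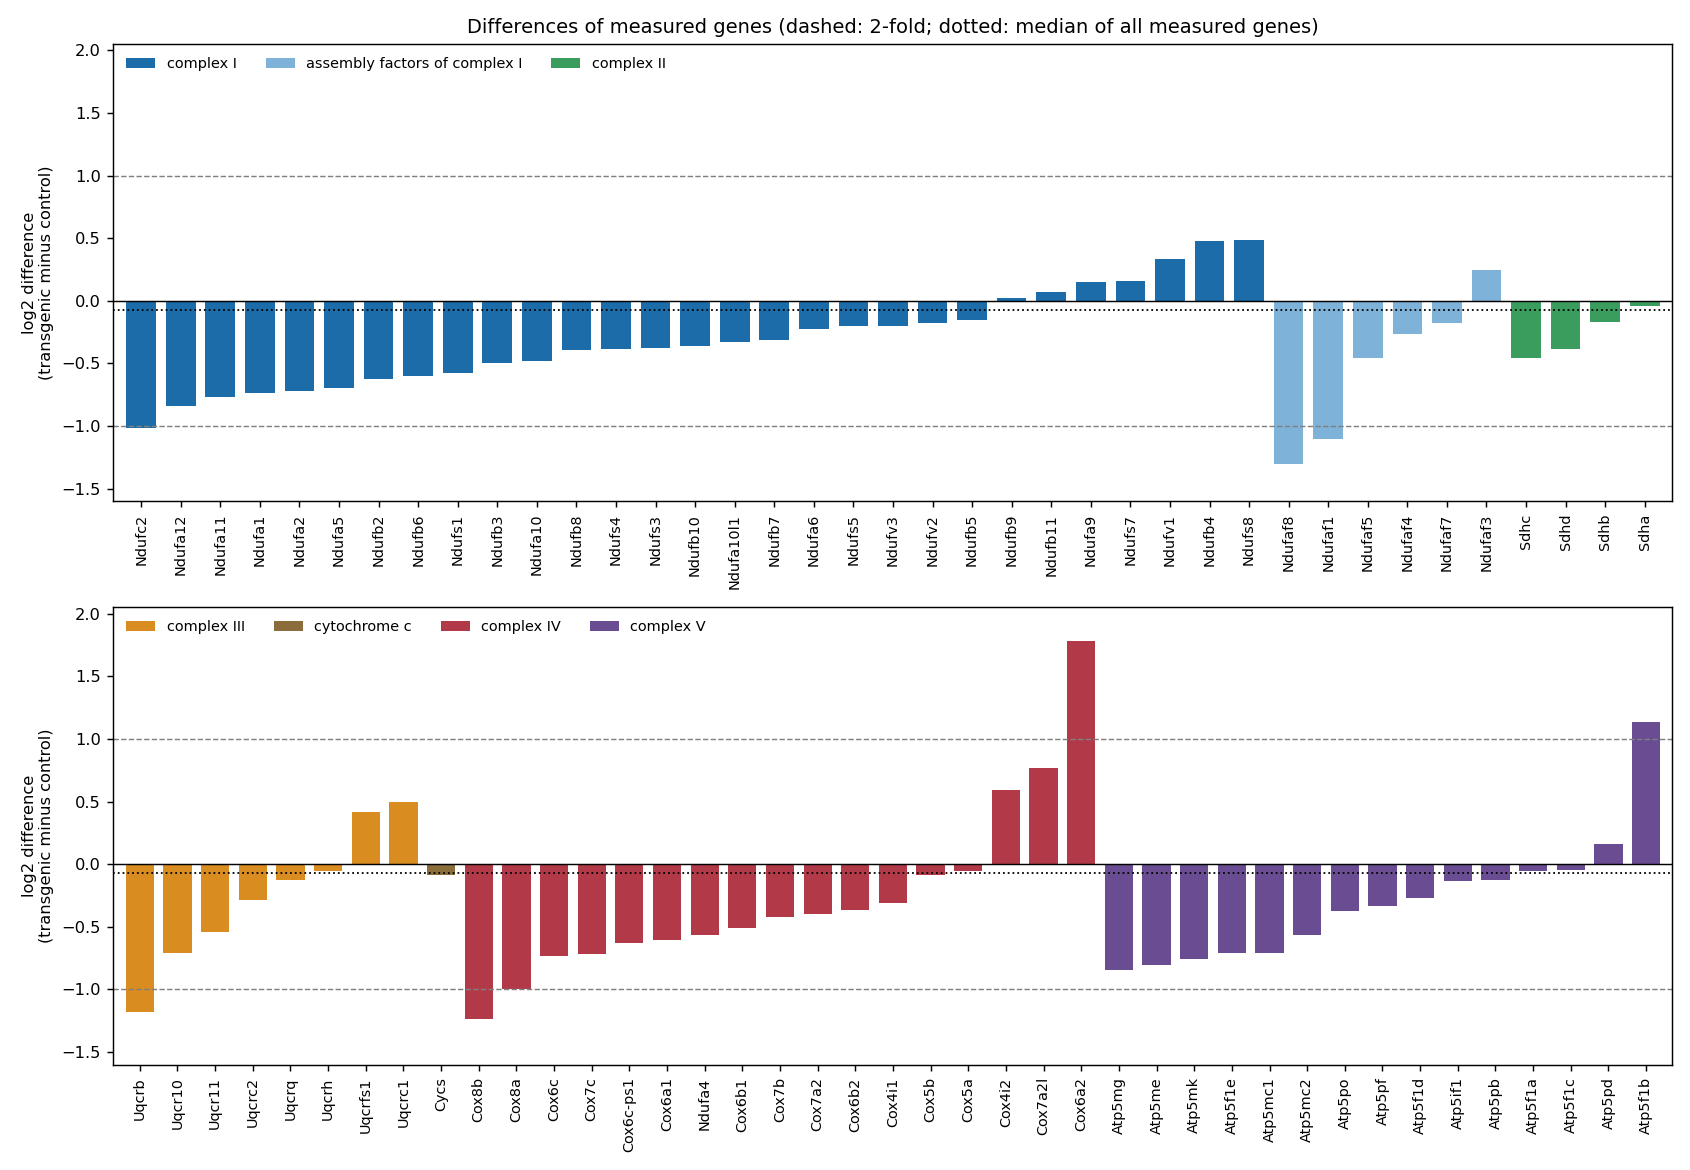
Log2 difference (transgenic minus control, 1 array each) of measured genes, labelled by symbol, coloured by complex and sorted within it; dashed lines mark 2-fold and the dotted line the median of all measured genes (-0.07). Cox6a2 and Atp5f1b exceed 2-fold upward and Ndufaf8, Cox8b, Uqcrb, Ndufaf1 and Ndufc2 downward, while 65 bars point down, a balance that holds for this scaling and not for spike-in scaling.

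Promoters were examined for what the genes share that the choice by name did not use. In the RefSeq table of GRCr8, 72 of the 82 genes had a window of 300 bases, from 250 before the annotated start to 50 after it. The search covered 4 motifs on both strands, of which ETS, NRF1 and YY1 were added after the values had been seen. The core of the hypoxia response element, ACGTG on one strand and on the other strand CACGT, was found in 19 of 72 windows (26.4%), beside 20.4% of the windows of 19005 protein-coding genes. The ETS core, which the GABP factor binds and which reads CGGAAG on one strand and on the other strand CTTCCG, was in 38 (52.8%, beside 20.6%). The element of the factor NRF1 was in 14 (19.4%, beside 6.09%), and the YY1 element AAGATGGC (GCCATCTT) in 13 (18.1%, beside 3.92%). At least 1 of the ETS, NRF1 and YY1 motifs was in 50 of 72 windows (69.4%), beside 26.7% of all. A match is a description of the letters and not a bound site.

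Measured genes with the ETS core had a median of -0.30 (n = 38) and those without it -0.38 (n = 33). For the hypoxia core the medians were -0.31 (n = 19) and -0.36 (n = 52), for NRF1 -0.32 (n = 14) and -0.36 (n = 57), and for YY1 -0.39 (n = 13) and -0.31 (n = 58). The 250 bases before the start are shown for the genes past 2-fold that have a window and for Cox8a, so that the muscle isoforms Cox6a2 and Cox8b can be read against ubiquitous subunits. Capitals mark every match within these 250 bases to any of the 4 motifs, and no matches of different motifs overlap. The YY1 matches counted for Cox8a and Ndufaf8 are not within the bases shown.
Cox6a2 (chr1:192219717-192219966, minus strand): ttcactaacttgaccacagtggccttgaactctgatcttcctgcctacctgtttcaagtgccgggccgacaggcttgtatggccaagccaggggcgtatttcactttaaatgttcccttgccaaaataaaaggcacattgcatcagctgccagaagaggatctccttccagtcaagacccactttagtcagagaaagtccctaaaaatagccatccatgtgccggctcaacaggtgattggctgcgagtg
Cox8b (chr1:205408274-205408523, minus strand): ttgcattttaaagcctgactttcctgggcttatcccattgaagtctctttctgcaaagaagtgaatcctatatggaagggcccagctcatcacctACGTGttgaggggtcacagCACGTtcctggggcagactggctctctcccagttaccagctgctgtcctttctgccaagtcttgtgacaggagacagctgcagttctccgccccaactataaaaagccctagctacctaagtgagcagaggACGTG
Cox8a (chr1:213833624-213833873, minus strand): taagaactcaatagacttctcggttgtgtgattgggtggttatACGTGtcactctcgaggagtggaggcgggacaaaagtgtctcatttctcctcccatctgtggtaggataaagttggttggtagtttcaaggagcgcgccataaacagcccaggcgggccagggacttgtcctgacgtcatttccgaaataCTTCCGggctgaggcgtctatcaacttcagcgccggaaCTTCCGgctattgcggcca
Atp5f1b (chr7:1099808-1100057, plus strand): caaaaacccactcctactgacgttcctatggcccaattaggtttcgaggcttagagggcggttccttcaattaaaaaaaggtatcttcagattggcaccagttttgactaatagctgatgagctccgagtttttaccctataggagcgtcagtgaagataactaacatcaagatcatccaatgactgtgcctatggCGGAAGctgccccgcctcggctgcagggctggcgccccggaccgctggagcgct
Ndufc2 (chr1:161122940-161123189, plus strand): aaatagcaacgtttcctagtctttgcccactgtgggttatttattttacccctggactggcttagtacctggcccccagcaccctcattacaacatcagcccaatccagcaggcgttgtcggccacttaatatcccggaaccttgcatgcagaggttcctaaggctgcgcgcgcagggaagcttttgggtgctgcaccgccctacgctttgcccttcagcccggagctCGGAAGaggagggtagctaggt
Ndufaf1 (chr3:127104021-127104270, minus strand): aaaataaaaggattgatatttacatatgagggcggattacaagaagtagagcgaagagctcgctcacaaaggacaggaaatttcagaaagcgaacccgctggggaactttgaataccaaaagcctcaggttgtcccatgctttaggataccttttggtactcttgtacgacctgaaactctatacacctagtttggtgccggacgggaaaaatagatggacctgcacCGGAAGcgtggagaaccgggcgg
Ndufaf8 (chr10:105879658-105879907, plus strand): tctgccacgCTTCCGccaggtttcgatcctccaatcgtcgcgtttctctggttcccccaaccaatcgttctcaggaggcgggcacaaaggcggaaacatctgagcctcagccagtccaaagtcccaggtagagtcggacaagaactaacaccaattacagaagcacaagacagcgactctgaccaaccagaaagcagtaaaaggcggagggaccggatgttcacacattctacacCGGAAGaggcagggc
The ETS core stands within 60 bases of the start in Atp5f1b, the gene that was 2.20-fold higher, and likewise in Cox8a, Ndufc2, Ndufaf1 and Ndufaf8, which were lower. Neither muscle isoform holds it. Cox8b, which was lower, holds the hypoxia core at 3 places, Cox8a also holds it, and Cox6a2, which was higher, holds none of the 4 motifs in this stretch. No window was matched for Cox4i2 or Uqcrb.

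Complex I, which oxidises NADH, had a median difference of -0.35 over 30 measured subunits. Of these, 0 were at least 2-fold higher and 1 lower (3.33%), where 10.5% and 10.3% of all measured genes were. The subunit past the rule was Ndufc2, an accessory subunit of the membrane arm, with relative signals of 79.3 in control and 39.2 in transgenic (2.03-fold lower). Its difference of -1.02 came inside the rule, at -0.95 and -0.98, with median and loess scaling. The other accessory subunits with the lowest differences were Ndufa12 (relative signals 40.6 and 22.6, -0.84), an assembly-linked subunit of the hydrophilic arm, and Ndufa11 (12.7 and 7.46, -0.77), a membrane subunit. Ndufa1 was at 109.6 and 65.6 (-0.74), Ndufa2 at 17.6 and 10.7 (-0.72) and Ndufa5 at 119.2 and 73.4 (-0.70). All of these were lower in transgenic by less than 2-fold.

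The core subunits of complex I that are encoded in the nucleus carry the flavin and the iron-sulfur clusters and pass electrons on to ubiquinone. Their median did not share this shift, though 3 of them were below 0. Over the 7 measured core subunits the median difference was 0.16, beside -0.39 over the 23 accessory subunits. Of the core subunits, 4 were above 0 and 3 below, and of the accessory subunits 4 were above 0 and 19 below. Ndufs8, an iron-sulfur subunit near the ubiquinone site, had relative signals of 3.31 and 4.63 (0.48). Ndufv1, which binds NADH and the flavin, was at 22.0 and 27.7 (0.33), and Ndufs7 at 13.8 and 15.4 (0.16). The 3 lower core subunits were Ndufv2 (18.9 and 16.7, -0.18), Ndufs3 (9.52 and 7.33, -0.38) and Ndufs1 (2.70 and 1.81, -0.58), the largest iron-sulfur subunit. The 2 ranges overlap, since the accessory subunit Ndufb4 (82.3 and 114.5, 0.48 and 0.43 on another probe) lay just below Ndufs8, the highest core subunit. The median of the core subunits lay 0.55 log2 above that of the accessory subunits, and between 0.47 and 0.55 above it over the alternatives. This split into core and accessory subunits is textbook knowledge, but it was applied after the values had been seen, so it carries no test.

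The NDUFAF assembly factors, which help build complex I and are not part of it, had a median of -0.36 over 6 measured genes. Of these, 2 were at least 2-fold lower and 0 higher, where 10.3% and 10.5% of all measured genes were. Ndufaf8 had the lowest difference of the 81 genes, with relative signals of 39.8 in control and 16.1 in transgenic (2.47-fold lower, 1 spot on each array). Ndufaf1 was at 0.539 and 0.251 (2.15-fold lower, spot SD 0.137 and 0.221 log2) and stayed inside 2-fold with normexp correction (-0.84) and with the authors' processed values (-0.85). Ndufaf5 (-0.46), Ndufaf4 (-0.27 on its brightest probe, and down to -0.47 on the others) and Ndufaf7 (-0.18 and -0.44) were lower by less, and Ndufaf3 was at 0.25. Among the other assembly factors of complex I, Nubpl, which supplies iron-sulfur clusters to it, had relative signals of 2.91 and 0.752 (-1.95) and Acad9 2.22 and 1.02 (-1.12). Of 10 such genes listed, 8 were measured, with a median of -0.36. Past 2-fold were 2, both lower, where 10.3% of all measured genes were lower. Tmem126b, Dmac1, Ecsit, Tmem186, Dmac2 and Timmdc1 made up the rest, from -0.92 to 0.81.

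Complex II, succinate dehydrogenase, also belongs to the citrate cycle. Its 4 subunits were all inside 2-fold, where 20.8% of all measured genes were past it, and their median was -0.28. The catalytic pair differed least. Sdha, the flavoprotein that binds succinate, had relative signals of 6.36 and 6.19 (-0.04), and the iron-sulfur subunit Sdhb 11.6 and 10.3 (-0.17). The membrane anchors Sdhc and Sdhd were at 12.5 and 9.09 (-0.46) and at 9.35 and 7.16 (-0.39). The 2 catalytic differences were smaller than the scanner error of 0.20, and those of the 2 anchors exceeded it.

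Complex III, cytochrome bc1, had a median of -0.21 over 8 measured subunits. Of these, 0 were at least 2-fold higher and 1 lower (12.5%), where 10.5% and 10.3% of all measured genes were. Uqcrb, a small subunit that takes part in ubiquinone binding, had relative signals of 88.2 and 38.9 (2.27-fold lower) on its brightest probe and -0.80 on another, and the mean over both probes was -0.99, inside the rule. The small subunits Uqcr10 (280.9 and 172.0, -0.71), Uqcr11 (80.4 and 55.2, -0.54), Uqcrq (0.635 and 0.582, -0.12) and Uqcrh (57.6 and 55.4, -0.06) were on the same side. Uqcrfs1, the Rieske iron-sulfur protein that passes electrons to cytochrome c1, was higher, at 8.86 and 11.8 (0.42). Of the large core proteins, Uqcrc1 was at 8.08 and 11.4 (0.50) and Uqcrc2 at 4.31 and 3.53 (-0.29). Cycs, the mobile carrier cytochrome c, differed by -0.09 on its brightest probe and by 0.32 on another, the only sign disagreement among the 17 genes with several probes.

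Complex V makes ATP in its F1 head, which sits on a central stalk, is held by a peripheral stalk and is driven by a proton channel in the membrane. Its median was -0.34 over 15 measured genes. Of these, 1 was at least 2-fold higher (6.67%) and 0 lower, where 10.5% and 10.3% of all measured genes were. The exception was Atp5f1b, the catalytic beta subunit, whose 10 spots gave relative signals of 3.14 in control and 6.90 in transgenic (2.20-fold higher, spot SD 0.093 and 0.064 log2). The other F1 genes did not follow it. The alpha subunit Atp5f1a was at 64.5 and 62.1 (-0.06), the gamma subunit Atp5f1c at 4.94 and 4.78 (-0.05), the delta subunit Atp5f1d at 33.2 and 27.4 (-0.27) and the epsilon subunit Atp5f1e at 179.4 and 109.6 (-0.71).

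The membrane part of complex V was lower throughout. Its 5 measured genes ranged from -0.84 to -0.56, with a median of -0.76. Atp5mg was at 167.4 and 93.4 (-0.84 and -0.90 on another probe), Atp5me at 237.9 and 136.1 (-0.81) and Atp5mk at 128.6 and 76.0 (-0.76 and -0.81). Atp5mc1 and Atp5mc2 encode the same rotor subunit c of the proton channel and were at 111.6 and 68.3 (-0.71) and at 166.1 and 112.5 (-0.56, and -0.67 on another probe). The 4 peripheral stalk genes had a median of -0.23, with Atp5po (63.3 and 48.9, -0.37) lowest and Atp5pd (46.1 and 51.4, 0.16) highest. Atp5if1, the inhibitor that stops the synthase from running backwards, differed by -0.13. The median of the F1 genes lay 0.70 log2 above that of the membrane part, and between 0.55 and 0.73 above it over the alternatives. Scalings that shift every gene alike leave this gap unchanged by construction. The F1 genes ran from -0.71 to 1.14, and Atp5f1e, at -0.71, lay within the range of the membrane part. The splits of complexes II, III and V into parts were not among the planned comparisons, so they carry no test.

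**Figure D2:**
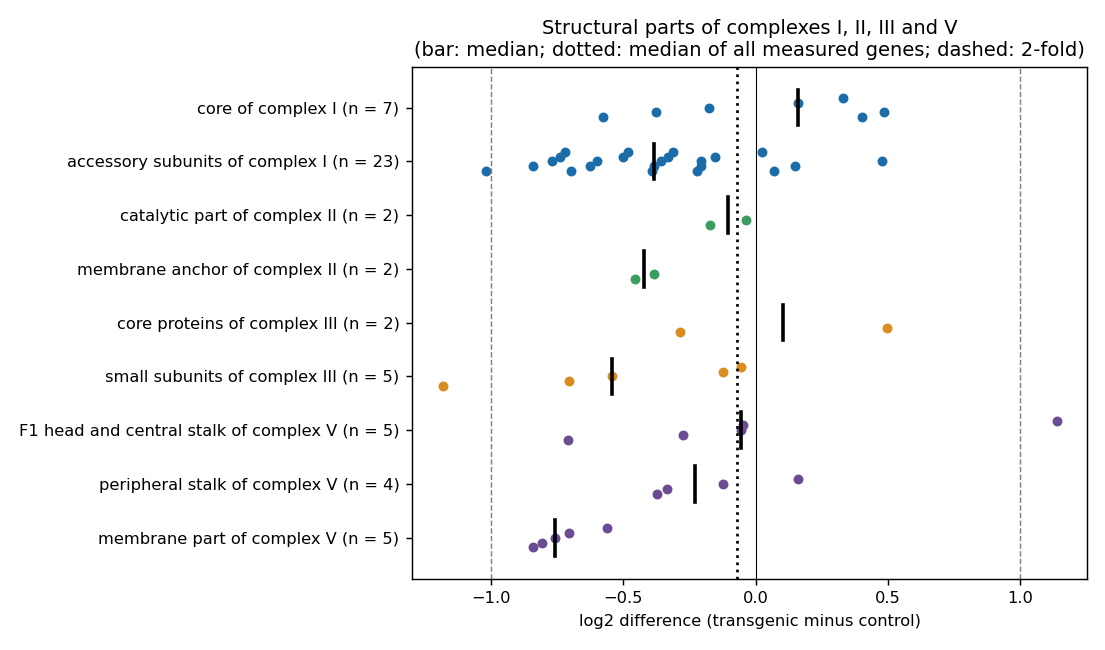
Log2 difference (transgenic minus control) of the measured genes in the structural parts of complexes I, II, III and V; each point is a gene, each bar the median of a part, dashed lines mark 2-fold and the dotted line the median of all measured genes. The core of complex I (median 0.16) lies to the right of its accessory subunits (-0.39). The 5 genes of the membrane part of complex V lie between -0.84 and -0.56. Under spike-in scaling all points move right together. The split into these parts was not among the planned comparisons.

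Complex IV, cytochrome c oxidase, had a median of -0.42 over 17 measured genes. Of these, 1 was at least 2-fold higher and 1 lower (5.88% each), where 10.5% and 10.3% of all measured genes were. It is here that isoforms of one subunit could be set beside each other. Cox6a2, the heart and skeletal muscle isoform of subunit VIa, had the highest difference of all 81 genes. Its relative signals were 2.66 in control and 9.13 in transgenic (3.43-fold higher, spot SD 0.020 and 0.002 log2), and its difference lay between 1.75 and 1.85 under all alternatives without spike-in scaling. Its widely used counterpart Cox6a1 was at 423.3 and 278.8 (-0.60), and at -0.32 with quantile normalization and -0.30 with the authors' processed values. The isoforms of subunit VIa thus differed in opposite directions under this scaling, while under spike-in scaling both were above 0, at 2.70 and 0.32.

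The other muscle isoform measured, Cox8b of subunit VIII, went the other way. Cox8b was dim, at 0.117 and 0.0497 (2.36-fold lower, spot SD 0.098 and 0.158 log2, scanner error 0.23), and its difference was -0.72 with normexp correction and -0.61 with the authors' processed values. Its counterpart Cox8a was at 255.2 and 127.8 (-0.998, 10 spots, spot SD 0.035 and 0.028), just inside the 2-fold rule. It was past the rule, at -1.005, with the percentile taken over probes above background on both arrays. Both isoforms of subunit VIII were thus lower. Under spike-in scaling both stayed below 0, but Cox8a, at -0.08, by less than its scanner error of 0.204. Of muscle marker genes outside the chain, 7 of 9 were measured. By at least 2-fold, 1 was higher (Actc1, 2.26 log2) and 3 were lower (Myh1, Myh8 and Tnnt1, -5.70 to -3.23). Of all measured genes, 10.5% were higher and 10.3% lower. The summed relative signal of the 9 markers was 8.08 in control and 17.4 in transgenic, of which Actc1 gave 3.48 and 16.7. The muscle creatine kinase Ckm and the slow troponin Tnni1 were well above background on neither array. The part of muscle-like cells in the Cox6a2 difference was not tested.

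Of the isoforms that switch with oxygen, the Cox4 pair could be measured. Cox4i1, the common isoform of subunit IV, was at 136.7 and 110.2 (-0.31, spot SD 0.038 and 0.062). Cox4i2, the isoform induced at low oxygen, was at 8.82 and 13.3 (1.51-fold higher, 0.59 log2, spot SD 0.144 and 0.059). The difference of Cox4i2 thus lay 0.90 log2 above that of Cox4i1, and between 0.73 and 0.90 above it over the alternatives. Neither was past 2-fold under this scaling, and under spike-in scaling Cox4i2 was, at 1.51. Ndufa4, now placed in complex IV, was at 66.3 and 44.9 (-0.56), and its low-oxygen counterpart Ndufa4l2 was not analysed here. Lonp1, the protease known to degrade the Cox4i1 protein at low oxygen, was at 8.47 and 11.9 (0.49).

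No isoform pair of complex IV, those above included, had differences past 2-fold in opposite directions. Cox7a2l, which encodes a factor that joins complexes III and IV into supercomplexes, was higher, at 42.7 and 72.7 (0.77, 1.70-fold), whereas its relative Cox7a2 was at 61.3 and 46.7 (-0.39). Cox6b1 and the testis isoform Cox6b2 were at 35.2 and 24.8 (-0.51) and at 8.16 and 6.33 (-0.37). Cox6c (236.0 and 142.1, -0.73), Cox7c (9.40 and 5.71, -0.72) and Cox7b (29.7 and 22.2, -0.42) were lower, and Cox5a (-0.06) and Cox5b (-0.09) hardly differed. The pseudogene Cox6c-ps1 (-0.63) and the gene copy Ndufa10l1 (-0.33, beside -0.48 for Ndufa10) may share signal with their parent genes, so their own values are uncertain.

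**Figure D3:**
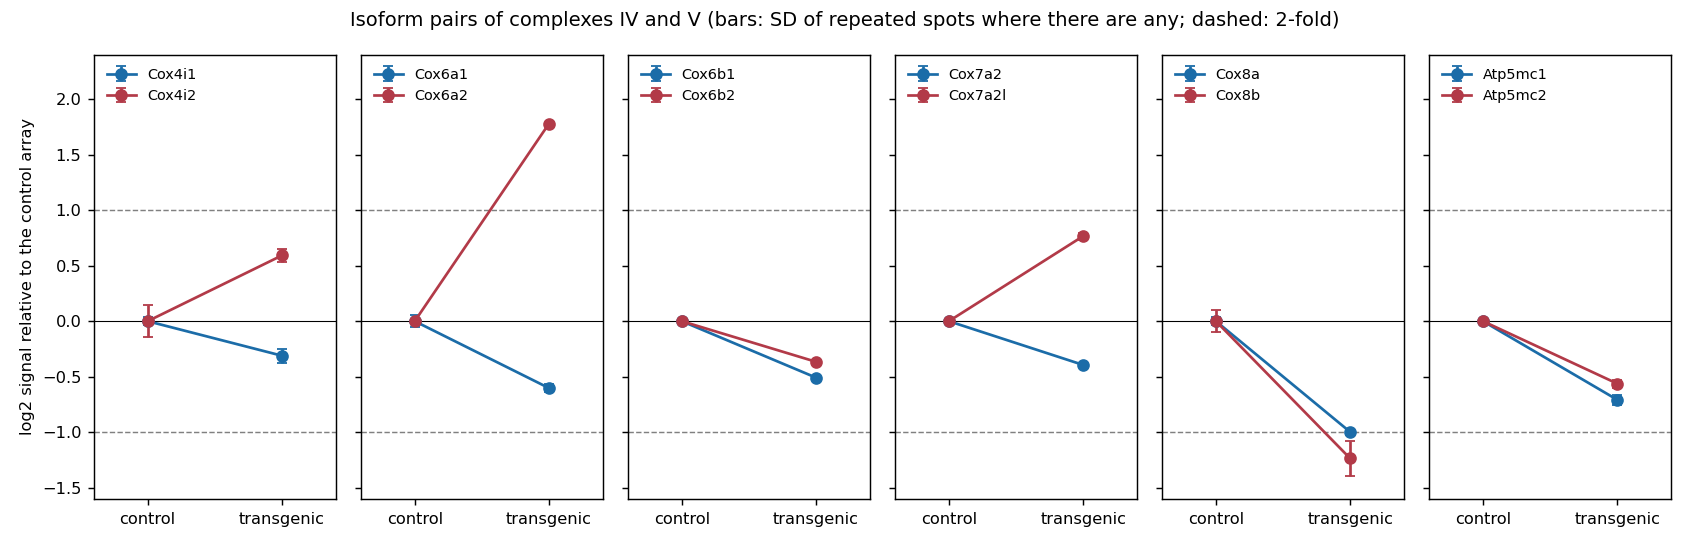
Log2 signal on the transgenic array relative to the control array for 6 isoform pairs of complexes IV and V (1 array each); error bars are the SD of repeated spots where a probe has them, and dashed lines mark 2-fold. Cox4i2, Cox6a2 and Cox7a2l point up (0.59, 1.78 and 0.77) while Cox4i1, Cox6a1 and Cox7a2 point down, and both members of the Cox8 and Atp5mc pairs point down; under spike-in scaling Cox4i1, Cox6a1, Cox7a2, the Cox6b pair and the Atp5mc pair also lie above 0, and the Cox8 pair does not.

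Genes of the wider pathway also differed little. Over assembly factors of all complexes, electron carriers, mitochondrial biogenesis and uncoupling genes, with Ndufab1, 77 of 84 matched genes were measured, with a median of -0.21, and 71 of the 77 were within 2-fold, with 3 past it in each direction, where 10.5% of all measured genes were higher and 10.3% lower. Those higher were Higd1a, a small complex IV partner that is induced at low oxygen (0.0677 and 0.505, 2.90 log2), Coq8a, a kinase-like protein of ubiquinone synthesis (0.159 and 0.431, 1.44), and Aifm2, which reduces ubiquinone outside the mitochondria (1.996 and 4.747, 1.25, and 1.06 on another probe). Those lower were Nubpl, Acad9 and Coa5, whose 2 probes disagree (-1.02 and 1.04). The 19 biogenesis and mitochondrial DNA genes gave 16 measured, a median of -0.16 and 0 past 2-fold in either direction. Of these, Esrra was at 16.7 and 31.6 (0.92), Tfam, which packages mitochondrial DNA, at 2.03 and 2.98 (0.55), Nrf1 at -0.10 and Gabpa at -0.40. Below 0 were 11 of the 16, with Ssbp1 (-0.85), Mterf3 (-0.84) and Tfb1m (-0.69) lowest. Ppargc1a, the coactivator that drives mitochondrial biogenesis, was well above background in transgenic only, at least 4.24-fold higher, and Mterf2 in control only, at least 3.75-fold lower. Of the 20 matched assembly genes of complex IV, 19 were measured, with a median of -0.38.

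A mixed list of genes linked to low oxygen or to mitochondria, not all of them low-oxygen responders, stood beside these small differences. Of 17 matched genes 16 were measured, 10 of them past 2-fold and all 10 higher, where 10.5% of all measured genes were higher and 10.3% lower, and the median was 1.59 log2. The list was chosen with results of these arrays known, so its direction is no independent evidence. Egln3, an oxygen-dependent hydroxylase that marks HIF for destruction, was at 0.0444 and 4.59 (6.69), and Epas1, the HIF-2 alpha subunit, at 0.171 and 1.37 (3.004). Pdk1, a kinase that keeps pyruvate out of the citrate cycle, was at 0.0981 and 0.656 (2.74). The mitophagy receptor Bnip3 was at 8.94 and 47.2 (2.401), and Mxi1, a MYC antagonist, at 0.431 and 1.96 (2.18). Within 2-fold were Lonp1, Iscu (-0.02), Chchd4 (0.47), Egln2 (0.69), Pdk2 (0.06) and Fundc1 (-0.09).

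The label of the cells was checked against markers. All 9 stromal markers were well above background on both arrays, and the leukocyte markers Ptprc, Cd34 and Itgam on neither. The stromal markers had a median difference of -0.52, with Eng (2.38) past 2-fold higher and Itgb1 (-1.31) and Col1a2 (-1.08) past it lower. Their summed relative signal was 504.4 in control and 299.3 in transgenic. Of 13 macrophage markers 10 were measured, with 6 at least 2-fold lower and 3 higher. Of all measured genes, 10.3% were lower and 10.5% higher. A further 3 macrophage markers were detected in control only. The summed relative signal of the 13 was 20.1 in control and 5.39 in transgenic, of which Lyz2 alone gave 9.25 and 0.0614. The 3 higher were Cd14 (0.652 and 2.246, 1.785 log2), Cd68 (0.665 and 1.993, 1.583 log2) and Fcgr2b, whose probes disagree (1.69 and -4.19). Such sums add different probes and are led by the brightest. Of 4 erythroid markers 3 matched. Ahsp (0.490 and 8.89) and Hbb-b1 were higher, and Alas2 was well above background on neither array. The part of these cell types in the differences of the respiratory chain genes was not tested.

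**Figure D4:**
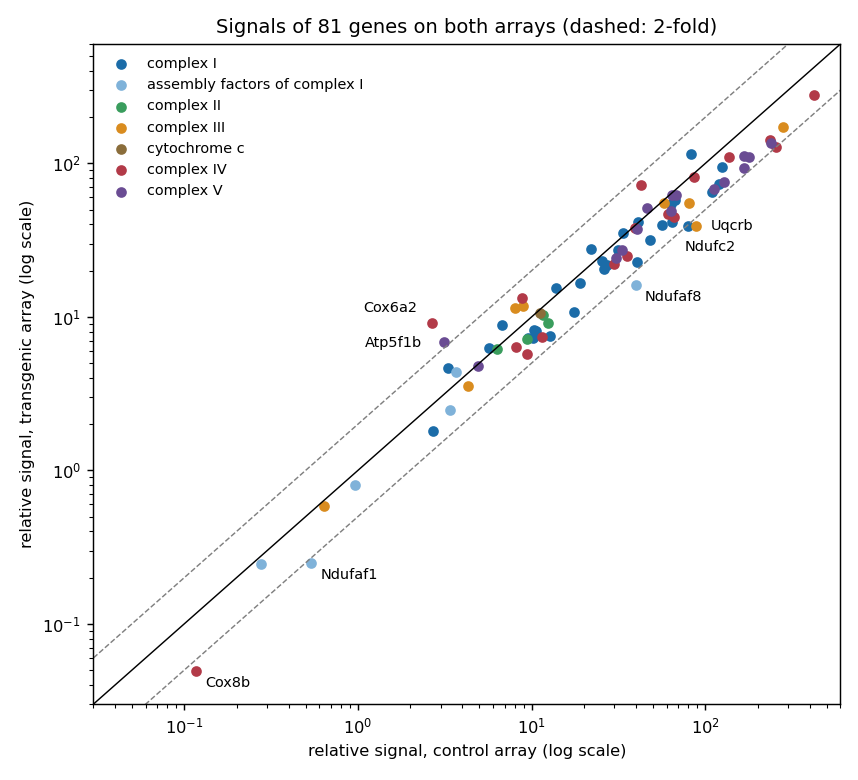
Relative signal of the 81 measured genes on the control array (x axis) and the transgenic array (y axis), both on log scales; the solid line marks equality, dashed lines 2-fold, and names mark the 7 genes past 2-fold. Most points lie close below the line, with r = 0.976 across these genes, as a description over genes; under spike-in scaling the cloud moves above the line.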

How the data were processed

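RNA of each group was read on a 1-colour Agilent rat array. The scanner signals were deposited as intensity values on a linear scale, which per the file headers come from Agilent Feature Extraction, version 11.0.1.1 (background subtracted, spatial trends corrected, no normalization between arrays) on an array designed on build rn4. The authors' processed values were deposited on a log2 scale, with centring and normalization not given in the sources used here. Their columns had medians of 7.20 and 7.18, and their differences followed those computed here (r = 0.978, slope 0.815).

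Outlier spots (446 and 505) were left out, log2 signals averaged per probe, and each array's 75th percentile subtracted. For a probe to count as well above background, more than 50% of its spots had to be. The brightest probe stood for a gene. For a gene detected on 1 array, the bound was taken against the higher of the dim signal and the lowest detected one (15.3 units in control, 15.9 in transgenic). Names came from RefSeq (GRCr8) by accession. The genes and lists were chosen with earlier results of these data known. Named were all isoforms, all genes past 2-fold or detected once, the 3 highest and lowest of each complex, complex II, and up to 6 of each wider list. Others named were chosen after their values were seen: the remaining members, all the cell markers, and Gabpb1, Lonp1, Iscu, Chchd4, Egln2, Pdk2, Fundc1, Esrra, Tfam, Nrf1, Gabpa, Ssbp1, Mterf3, Tfb1m and the assembly factors within 2-fold. Alternatives used limma 3.58.1 (normexp with an offset of 50 on median spot signals, since mean signals were not in the columns; quantile; loess with a span of 0.3). The scripts, in Python 3.11.15, were tested on simulated data. No p-value was computed. A gene of the set that enters the counts and medians is not reported here by name.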

Additional observations from a re-analysis of the deposited data

How the results depend on the processing

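Without spike-in scaling, 473 of the 479 values of 44 named genes under the alternatives moved by less than their scanner error. The 6 others were Cox6a1, Cox8b and Ndufaf1, under 2 alternatives each, and none changed sign while past 2-fold. The filters on genes reuse the same values, and the median and percentile scalings shift every gene alike by less than the scanner error. Many of the 479 values thus could not move, by construction. All 6 moves came with normexp correction (2), quantile normalization (1) or the authors' processed values (3). The count of genes at least 2-fold lower was 3 in place of 5 with normexp correction, with the authors' processed values and among genes brighter than the median. It was 4 with median scaling, loess and the mean over probes, and 6, with Cox8a added, with the percentile over probes above background on both arrays. The counts higher and lower were 4 and 23 by a 1.5-fold rule and 0 and 0 by a 4-fold rule. Scaling on the mean of 10 E1A spike-in probes raised every difference by 0.92 log2. The 2-fold counts were then 14 and 0, where 41.2% and 2.6% of all genes were higher and lower. The medians were 0.56 for all members, 0.58 for complex I, 0.56 for its assembly factors, 0.64 for II, 0.71 for III, 0.83 for cytochrome c, 0.50 for IV and 0.58 for V. Scaling on the 8 of these E1A probes above background on both arrays was an alternative chosen after seeing the data. It gave counts of 16 and 0, where 44.7% and 2.4% of all genes were. Its medians were 0.63, 0.64, 0.62, 0.71, 0.78, 0.90, 0.56 and 0.65 in the same order. No paired analysis was possible because each group had 1 array. Leaving out a replicate was not possible for the same reason. Precision is limited by the number of arrays, and Cox8b, the dimmest measured gene, is nearest to background.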

Other observations

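Among the 17 genes with several probes, the probes of a gene spread by a median of 0.11 log2, and 16 genes had 1 sign on all of them. The widest spread, 0.41 log2, was that of Cycs. Ndufab1, the mitochondrial acyl carrier protein that is also a subunit of complex I, lies outside the naming rule and gave -0.12 and -0.94 on 2 probes. Gabpb1, a subunit of the GABP factor, gave -0.18 and -1.9 on its probes. Uncoupling protein genes were dim, with Ucp1 at relative signals of 0.0615 and 0.0374 and Ucp2 at 0.0315 and 0.0220, and Ucp3 was well above background on neither array. Sdhaf1, which helps insert iron-sulfur clusters into complex II, was at 11.8 and 22.8 (0.95 log2) while Sdhaf2, which helps attach its flavin, was at 9.01 and 6.62 (-0.44).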
